A study of Mus musculus with 8 samples.

Results

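Cyp4a14, Cyp4a31, Cyp4a32, Pdk4, Pex11a, Creb3l3 and Aldh3a2 are liver genes that the fatty acid receptor PPARα switches on, and their RNA was compared in 8 mouse livers. They were taken from a list of 8 such genes by requiring a probe set that the platform annotation assigns to exactly 1 gene, and, where a gene had several, by keeping the brightest on average. The array measured 30627 genes in this way. Cyp4a10, the eighth gene of the list, has no such probe set, because the only one listed for it is also assigned to Cyp4a31, and that shared probe set is given below without ascribing it to either gene.

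The anti-miR-128-3p group was 4 male C57BL/6 mice that were given 5 intraperitoneal injections of anti-miR-128-3p, which blocks the microRNA miR-128-3p, after 13 weeks on high fat food. The 4 control mice were also male C57BL/6 animals kept on that food for 13 weeks, so both groups belong to a model of diet-induced high cholesterol and no lean liver was measured. The control injection is called vehicle in 1 label and control in the design text, and 1 treatment label names miR-128-3p itself where the titles name its inhibitor, so the groups follow the titles. The titles number the mice within each group, and by them an array is counted as 1 mouse, though nothing else in the labels says so, and p-values measure only the spread between these samples. The labels state neither the age of the mice nor the chemistry of the inhibitor.

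PPARα is a nuclear receptor that binds fatty acids, pairs with the retinoid X receptor and turns on genes of fatty acid use, most of all in the fasted liver. Its DNA element is a direct repeat of the hexamer AGGTCA with a spacer base. Cyp4a enzymes are microsomal P450s that hydroxylate fatty acids at their far end, and Aldh3a2 oxidises the fatty aldehydes that arise from such routes. Pdk4 is a kinase that shuts off pyruvate dehydrogenase so that fat is burned in place of glucose, Pex11a is a membrane protein that drives division of peroxisomes, and Creb3l3 encodes CREBH, a liver transcription factor held in the endoplasmic reticulum that works together with PPARα during fasting.

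The microRNA that was inhibited is shown first because it defines the treatment. Mature miR-128-3p is produced in the mouse from the genes Mir128-1 (chr1:128202404-128202424, plus strand) and Mir128-2 (chr9:112118644-112118664, minus strand) of assembly GRCm38.p6, and RefSeq gives the same 21 bases for both. Its seed, bases 2 to 8, is in capitals.
mmu-miR-128-3p: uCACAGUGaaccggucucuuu

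RefSeq promoter windows, 250 bases before to 50 after an annotated start, were at hand for 5 of the 8 genes, with 6 windows in all because Creb3l3 has a pair of annotated starts. They were searched on both strands for the hexamer AGGTCA and for the direct repeat AGGTCANAGGTCA, in which N is any base and at most 2 of the 12 fixed letters may differ. The hexamer lies inside the repeat, so these searches overlap. Of the 6 windows, 1 held the hexamer and the same 1 held the repeat, at a start of Creb3l3, with 2 differing letters and its first base at position -209 from that start. Of all 32851 windows, 16.3% held the hexamer and 3.86% the repeat, and the exact repeat was in 0 of the 6 windows and 0.0396% of all. Both Creb3l3 windows are printed because Creb3l3 was the gene whose groups did not overlap, with the Cyp4a32 window as that of a Cyp4a gene. Capitals mark the matched letters, and a match describes the letters only.
Creb3l3, chr10:81092542-81092841, minus strand: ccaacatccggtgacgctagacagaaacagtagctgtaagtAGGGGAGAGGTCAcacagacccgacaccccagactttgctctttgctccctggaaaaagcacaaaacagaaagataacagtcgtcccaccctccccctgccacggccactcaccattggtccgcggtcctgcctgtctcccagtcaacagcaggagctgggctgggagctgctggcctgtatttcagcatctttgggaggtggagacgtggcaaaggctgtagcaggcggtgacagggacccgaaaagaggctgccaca
Creb3l3, chr10:81098823-81099122, minus strand: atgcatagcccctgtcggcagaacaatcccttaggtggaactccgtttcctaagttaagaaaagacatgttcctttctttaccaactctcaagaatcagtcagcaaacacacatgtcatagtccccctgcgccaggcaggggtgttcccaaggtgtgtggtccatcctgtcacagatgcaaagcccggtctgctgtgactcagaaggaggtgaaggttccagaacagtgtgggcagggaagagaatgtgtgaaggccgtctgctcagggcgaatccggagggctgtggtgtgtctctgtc
Cyp4a32, chr4:115600688-115600987, plus strand: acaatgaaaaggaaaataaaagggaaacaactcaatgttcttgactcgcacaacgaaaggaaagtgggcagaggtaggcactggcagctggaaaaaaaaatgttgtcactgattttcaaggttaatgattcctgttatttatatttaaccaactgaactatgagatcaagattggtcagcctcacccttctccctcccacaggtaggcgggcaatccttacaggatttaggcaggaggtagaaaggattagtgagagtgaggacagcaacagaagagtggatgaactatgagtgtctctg

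Values are RMA signals on a log2 scale, and a log2 difference is anti-miR-128-3p minus control, so that -1 would be a halving. No gene of the array passed limma's test at an adjusted p under 0.05: 0 of the 7 genes and 0 of 30627 (0%) were called, and the smallest adjusted p over all genes was 0.194. At an unadjusted limma p under 0.05 there was 1 of the 7, Creb3l3, against 7.63% of all genes (3.37% lower and 4.26% higher). The direction was lower in anti-miR-128-3p livers in 6 of the 7, with a median log2 difference of -0.22, whereas 50.9% of all genes were lower and their median was 0.00 to 2 decimals. That median depended on single livers: it was -0.05 without control replicate 2, -0.15 without anti-miR-128-3p replicate 2 or 3, and between -0.17 and -0.28 with any other liver left out. Groups did not overlap in 1 of the 7 genes, against 4.41% of all genes.

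**Figure D1:**
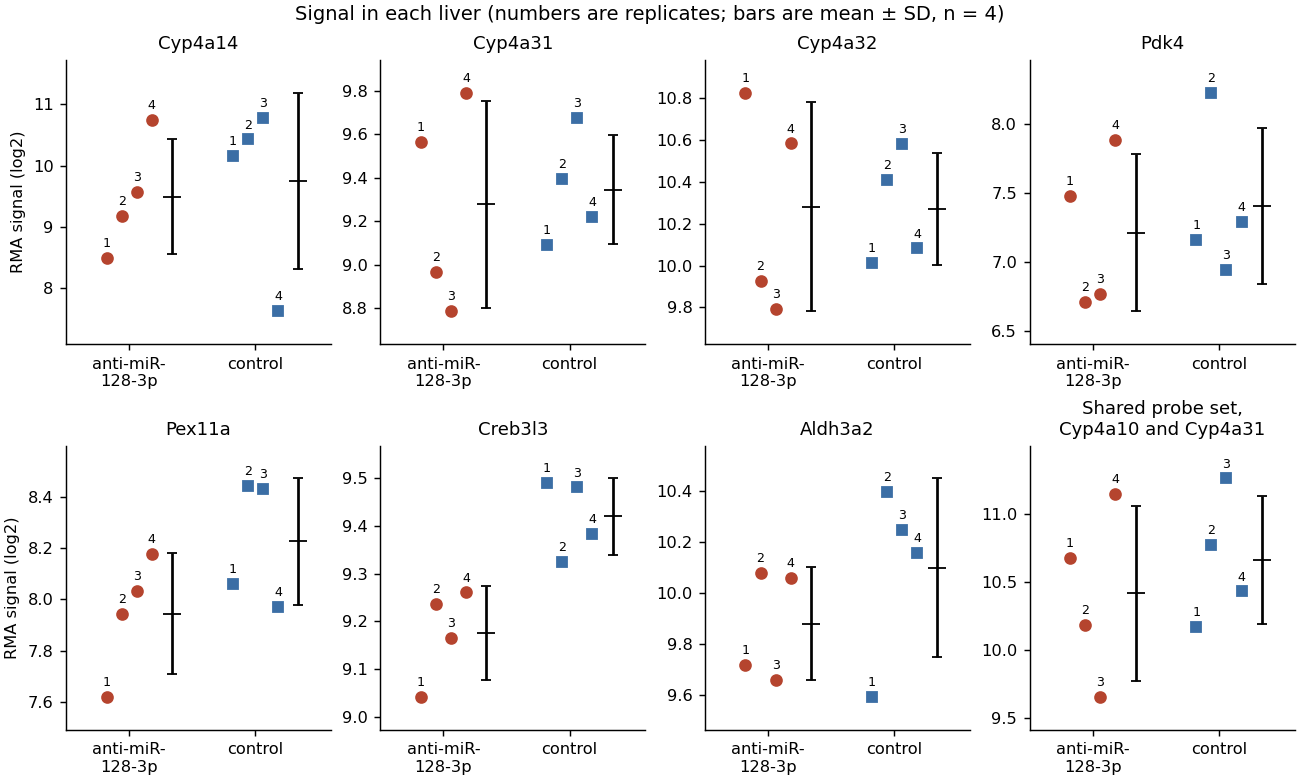
RMA signal (log2, vertical axes with separate ranges) of the 7 genes and of the probe set shared by Cyp4a10 and Cyp4a31 in each liver. Points carry the replicate number and bars are mean ± SD of 4 livers; Creb3l3 is the panel in which every anti-miR-128-3p liver (9.04 to 9.26) sits below every control liver (9.32 to 9.49).

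The arrays had near-equal medians over the mouse probe sets, from 4.31 to 4.36, and the r across genes between 2 arrays was 0.992 to 0.996. The table has no detection call, and the number of arrays limits the precision. Against the 95th percentile of 5222 negative control probe sets, a signal of 7.47, Pdk4 lay below in 5 of 8 livers and the other 6 genes in none. The labelled tissue had its markers: the 6 measured hepatocyte markers averaged 12.67 to 12.82 in anti-miR-128-3p livers and 12.74 to 12.82 in control livers. Markers of other cells moved with the groups or with single livers. All 10 macrophage markers were higher in anti-miR-128-3p livers (mean signal 7.84 to 8.99 in these and 7.12 to 8.14 in control livers). The 8.99 was that of anti-miR-128-3p replicate 1 and the 7.12 that of control replicate 3. In each of the 10 the groups overlapped. Of the 8 stellate and fibroblast markers 6 were higher (7.18 to 8.41 in anti-miR-128-3p livers and 6.89 to 7.13 in control livers), and of the 8 endothelial markers 7 were lower (7.54 to 7.87 in anti-miR-128-3p livers and 7.52 to 8.07 in control livers). The 8 neutrophil markers averaged 4.32 to 4.68 in anti-miR-128-3p livers, while control livers ran from 4.29 to 6.35, with 6.35 in control replicate 1. By mean signal, all 8 neutrophil, 5 of the 8 stellate and fibroblast, 3 of the 8 endothelial and 2 of the 10 macrophage markers were below 7.47. Of the 8 neutrophil markers 3 lay below the median negative control signal on average, and none of the macrophage, stellate or endothelial markers did. Lists for lymphocytes, bile duct, fat, pancreas and muscle averaged 4.29 to 5.33 in anti-miR-128-3p livers and 4.21 to 5.60 in control livers, with 3 of the 4 measured fat cell markers below that median. In whole liver, fewer cells of a type and less RNA per cell cannot be told apart, and the part of these cells in the values below was not tested.

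Among the omega-hydroxylases, Cyp4a14 differed most from mouse to mouse. It had signals of 8.49, 9.19, 9.57 and 10.74 in anti-miR-128-3p replicates 1 to 4, against 10.16, 10.43, 10.78 and 7.63 in control replicates 1 to 4. Control replicate 4 was the lowest of the 8 livers and control replicate 3 the highest, so the control group alone spanned all of the anti-miR-128-3p values. From the lowest to the highest liver Cyp4a14 ran over 3.16 log2 units, or 8.93-fold. Its within-group SD of 1.22 lay above those of 99.9% of all genes.

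Group means of Cyp4a14 were 9.50 ± 0.94 in anti-miR-128-3p livers and 9.75 ± 1.44 in control livers (log2 signal, SD, n = 4 each). The log2 difference was -0.25 ± 0.71 (SE) with a limma adjusted p of 0.976. Its 95% interval ran from -1.85 to 1.35, or from 0.277-fold to 2.54-fold, so that a difference of either sign was within the error. The value rested on single livers: it was -0.96 without control replicate 4 (limma adjusted p = 0.737), 0.08 without anti-miR-128-3p replicate 1 and 0.09 without control replicate 3.

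Cyp4a31 and Cyp4a32 lie next to Cyp4a10 and Cyp4a14 in GRCm38.p6, in the order Cyp4a14, Cyp4a10, Cyp4a31, Cyp4a32 with only pseudogenes between them, and are close copies of Cyp4a10. A long noncoding RNA gene, Gm52676, overlaps Cyp4a14. How far the probe sets of Cyp4a31 and Cyp4a32 also read RNA of their neighbours was not tested. Cyp4a31 had 9.57, 8.97, 8.79 and 9.79 in anti-miR-128-3p replicates 1 to 4, against 9.09, 9.39, 9.67 and 9.22 in control replicates 1 to 4. Cyp4a32 had 10.83, 9.93, 9.79 and 10.58 in anti-miR-128-3p replicates 1 to 4, against 10.01, 10.41, 10.58 and 10.08 in control replicates 1 to 4. In both genes the anti-miR-128-3p group held the lowest and the highest of the 8 livers, with replicates 2 and 3 lowest and replicates 1 and 4 high, and all control livers lay within that range.

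Cyp4a31 differed by -0.07 ± 0.22 (SE, limma adjusted p = 0.979) and Cyp4a32 by 0.01 ± 0.24 (limma adjusted p = 0.996). Their 95% intervals were 0.671-fold to 1.36-fold and 0.696-fold to 1.46-fold, which leaves room for changes of that size in either direction. Cyp4a31 was higher in anti-miR-128-3p livers, by 0.04 to 0.10, when anti-miR-128-3p replicate 2 or 3 or control replicate 3 was left out. Cyp4a32 was lower, with differences of -0.05 to -0.17, without anti-miR-128-3p replicate 1 or 4 or control replicate 1 or 4.

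The probe set shared by Cyp4a10 and Cyp4a31 had 10.67, 10.19, 9.66 and 11.14 in anti-miR-128-3p replicates 1 to 4, against 10.17, 10.77, 11.26 and 10.43 in control replicates 1 to 4. Anti-miR-128-3p replicate 3 was lowest and control replicate 3 highest, and the groups overlapped. In a fit of all 65956 mouse probe sets its log2 difference was -0.24 ± 0.32 (SE, limma adjusted p = 0.938).

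Cyp4a14 and its neighbours followed the same livers only in part. Anti-miR-128-3p replicate 1 was 1.13 log2 units below the 8-liver mean in Cyp4a14 (-1.13) but 0.26 above it in Cyp4a31 and 0.55 above it in Cyp4a32. Control replicate 4 stood at -2.00 in Cyp4a14, against -0.09 in Cyp4a31 and -0.19 in Cyp4a32. Control replicate 1 was above the mean in Cyp4a14 (0.54) but below it in Cyp4a31 (-0.22), Cyp4a32 (-0.26) and the shared probe set (-0.37). Anti-miR-128-3p replicate 4 and control replicates 2 and 3 were above the mean in all 4 probe sets. Anti-miR-128-3p replicates 2 and 3 and control replicate 4 were below it in all 4.

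**Figure D2:**
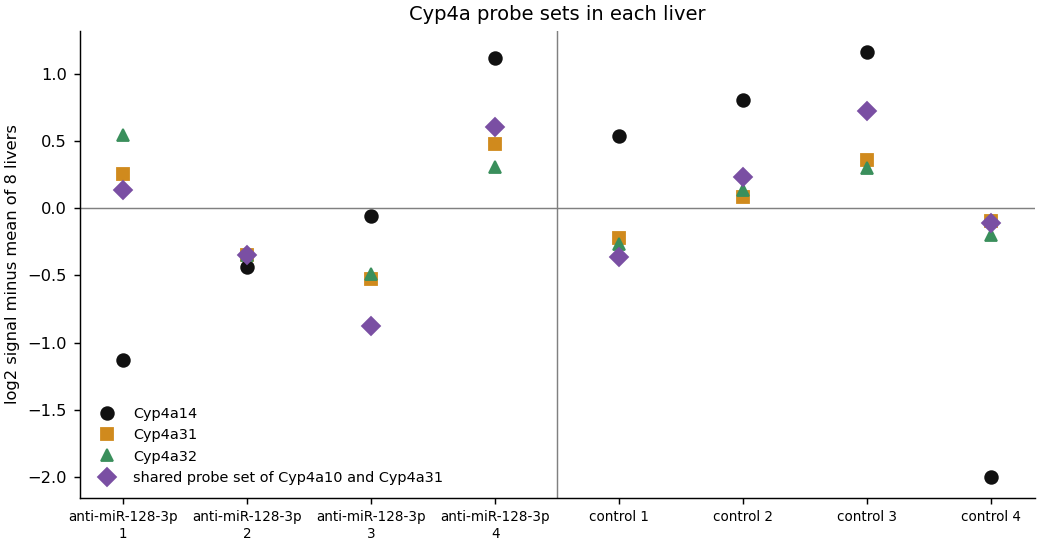
Signal of the 4 Cyp4a probe sets in each liver as log2 units from that probe set's mean over the 8 livers. Cyp4a14 (black circles) reaches -2.00 in control replicate 4 and -1.13 in anti-miR-128-3p replicate 1, livers in which the other 3 probe sets lie between -0.19 and 0.55.

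Of the other Cyp4 genes, 10 of the 15 measured were lower in anti-miR-128-3p livers and 5 higher, with a median log2 difference of -0.03. None passed limma's test over all genes (smallest adjusted p = 0.711), none had an unadjusted p under 0.05, and none was without overlap between groups. Cyp4a12a, the Cyp4a form that is high in male mice, differed by -0.22 ± 0.15 (SE), Cyp4b1 by -0.32 ± 0.20, Cyp4f13 by -0.20 ± 0.10 and Cyp4f17 by -0.21 ± 0.15. The signals of Cyp4a12a averaged 11.84 ± 0.24 in anti-miR-128-3p livers and 12.06 ± 0.26 in control livers (SD, n = 4 each).

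Aldh3a2, the fatty aldehyde dehydrogenase, had 9.72, 10.08, 9.66 and 10.06 in anti-miR-128-3p replicates 1 to 4, against 9.59, 10.39, 10.25 and 10.16 in control replicates 1 to 4. All 4 anti-miR-128-3p livers lay below the control mean, but control replicate 1 was the lowest liver of all, so the groups overlapped. The log2 difference was -0.22 ± 0.17 (SE, limma adjusted p = 0.843). Without control replicate 1 it was -0.39 and the groups no longer overlapped, which made 2 of the 7 genes without overlap in place of 1. Groups separate more easily with fewer livers, and the share of all genes was not counted for that split. Without control replicate 2 the difference of Aldh3a2 was -0.12.

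Of 15 measured partners of omega-oxidation, 12 were lower and 3 higher with a median log2 difference of -0.03, 3 of them lower at an unadjusted limma p under 0.05 against 3.37% of all genes, and 0 passed the adjusted threshold. Acot8, a peroxisomal thioesterase, differed by -0.25 ± 0.07 (SE), with signals below the 7.47 of the negative controls in all 8 livers. The aldehyde dehydrogenase gene Aldh9a1 differed by -0.19 ± 0.05, Aldh2 by -0.16 ± 0.06 and Aldh1a1 by -0.10 ± 0.13. The close relative Aldh3a1, at 4.64 in anti-miR-128-3p livers and 4.65 in control livers, was near the median negative control signal of 4.38 and differed by -0.01 ± 0.05.

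Pdk4 had 7.48, 6.71, 6.77 and 7.88 in anti-miR-128-3p replicates 1 to 4, against 7.16, 8.23, 6.94 and 7.29 in control replicates 1 to 4. Control replicate 2 was highest and anti-miR-128-3p replicate 4 next, with the other 6 livers within 6.71 to 7.48, and the groups overlapped. Means were 7.21 ± 0.57 in anti-miR-128-3p livers and 7.40 ± 0.57 in control livers (SD, n = 4 each). The log2 difference was -0.19 ± 0.33 (SE, limma adjusted p = 0.952, 95% interval 0.520-fold to 1.47-fold), and it was 0.08 without control replicate 2. Its within-group SD of 0.57 lay above those of 99.2% of all genes.

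The other genes of pyruvate dehydrogenase control were divided in direction, with 5 of 11 lower, 6 higher and a median log2 difference of 0.01, and 0 were called. Pdk1 differed by 0.09 ± 0.11 (SE) and Pdk2, the main Pdk form of fed liver, by -0.09 ± 0.15. Pdha1, the catalytic subunit that Pdk4 phosphorylates, differed by -0.17 ± 0.07 with no overlap between groups, the phosphatase genes Pdp2 by -0.22 ± 0.10 and Pdp1 by 0.10 ± 0.06, and Dld by -0.06 ± 0.07.

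Pex11a had 7.62, 7.94, 8.03 and 8.18 in anti-miR-128-3p replicates 1 to 4, against 8.06, 8.44, 8.43 and 7.97 in control replicates 1 to 4. All 4 anti-miR-128-3p livers lay below the control mean, while control replicates 1 and 4 lay inside their range. Means were 7.94 ± 0.24 in anti-miR-128-3p livers and 8.23 ± 0.25 in control livers (SD, n = 4 each), a log2 difference of -0.28 ± 0.14 (SE, limma adjusted p = 0.711). Its sign was the same with each liver left out, with differences of -0.37 to -0.17.

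Other peroxisome biogenesis and division genes were lower in 13 of 15, with a median log2 difference of -0.09. At an unadjusted limma p under 0.05, 3 were lower against 3.37% of all genes, and 0 passed the adjusted threshold. Groups did not overlap in 3 lower genes (1.89% of all genes were such) and in 1 higher gene (2.52% of all). Pex26, which anchors the import machinery, differed by -0.19 ± 0.05 (SE), the import pore component Pex13 by -0.17 ± 0.05 and the membrane protein receptor Pex19 by -0.14 ± 0.06. Fis1, a fission adaptor shared with mitochondria, was the higher one with 0.12 ± 0.05, and Pex11g, the relative of Pex11a, differed by -0.11 ± 0.08.

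Creb3l3 had 9.04, 9.24, 9.16 and 9.26 in anti-miR-128-3p replicates 1 to 4, against 9.49, 9.32, 9.48 and 9.38 in control replicates 1 to 4. Every anti-miR-128-3p liver was below every control liver, with anti-miR-128-3p replicate 4 and control replicate 2 the nearest pair. Means were 9.18 ± 0.10 in anti-miR-128-3p livers and 9.42 ± 0.08 in control livers (SD, n = 4 each). The log2 difference was -0.24 ± 0.06 (SE), or 0.845-fold, with a 95% interval of 0.765-fold to 0.933-fold. It had an exact two-sided permutation p of 0.0286, the smallest that 4 against 4 allows, and a limma adjusted p of 0.346 over all genes, and so did not pass. With each liver left out in turn the difference was between -0.28 and -0.20 and the lowest adjusted p was 0.349.

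Creb3l3 also differed from the other 6 genes in its spread. Its within-group SD of 0.09 lay above those of 44.2% of all genes, whereas the other 6 lay above those of 93.1% or more. The size of its difference was close to those of Cyp4a14, Pex11a and Aldh3a2, from which it was set apart by its small error. Hnf4a, a hepatocyte transcription factor and the marker of that list with the largest difference, was lower too, by -0.24 ± 0.10 (SE, limma adjusted p = 0.606), and its part in the result was not tested.

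Relatives, proteases and known mouse targets of CREBH were lower in 9 of 11, with a median log2 difference of -0.14, and 0 were called. At an unadjusted limma p under 0.05, 3 of the 11 were lower, against 3.37% of all genes. Among its targets, the apolipoprotein genes Apoa4 and Apoa5 differed by -0.41 ± 0.19 (SE) and -0.48 ± 0.20, the lipid droplet gene Cidec by -0.24 ± 0.10, and the hormone gene Fgf21 by -0.54 ± 0.33. Another target, Apcs, went the other way and was higher by 0.51 ± 0.39. Cidec and Fgf21 are also in the list of other PPARα targets given below. Of its relatives, Creb3 differed by -0.11 ± 0.05 with no overlap between groups, Creb3l1 by 0.24 ± 0.12 and Creb3l2 by -0.14 ± 0.16.

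**Figure D3:**
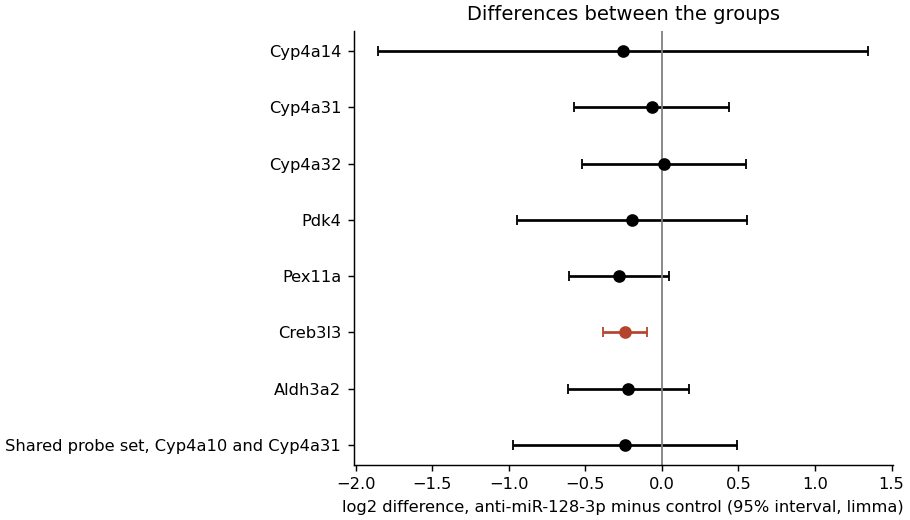
Log2 difference (anti-miR-128-3p minus control) of the 7 genes and the shared Cyp4a10 and Cyp4a31 probe set with limma's 95% interval, red where the unadjusted p is under 0.05. Only the interval of Creb3l3 leaves out 0, and that of Cyp4a14, from -1.85 to 1.35, is the widest of the 8.

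Ppara, the receptor gene itself, had a mean of 9.66 ± 0.07 in anti-miR-128-3p livers and 9.83 ± 0.14 in control livers (log2 signal, SD, n = 4 each), a log2 difference of -0.17 ± 0.07 (SE, limma adjusted p = 0.641), and its groups overlapped through control replicate 4. Its partner Rxra differed by -0.05 ± 0.06, the coactivator gene Ppargc1a by 0.20 ± 0.20, the mediator subunit gene Med1 by -0.10 ± 0.06, Rxrg by 0.07 ± 0.05 and the corepressor gene Nrip1 by -0.08 ± 0.06. In all, 10 of 15 receptors and cofactors were lower, 5 were higher, the median was -0.06 and 0 were called.

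Other targets of PPARα, from a list that leaves out the 7 genes, were read in the same way. Of 38 measured, 36 were lower and 2 higher, with a median log2 difference of -0.24, and 0 passed limma's adjusted threshold (smallest adjusted p = 0.225). At an unadjusted limma p under 0.05, 17 were lower, or 44.7% against 3.37% of all genes, and in 11, or 28.9%, every anti-miR-128-3p liver was below every control liver, against 1.89% of all genes. Of the 7 genes above, 1 met each of these conditions. No test of the difference between the lists was run.

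The smallest p in that list was that of the carnitine transporter gene Slc22a5, with a log2 difference of -0.38 ± 0.08 (SE), and its signal lay below the 7.47 of the negative controls in 7 of 8 livers. Next by p were Hadhb with -0.22 ± 0.05, Cpt2 with -0.36 ± 0.08 and Slc25a20 with -0.35 ± 0.08, genes of mitochondrial beta-oxidation and carnitine transfer. The pantetheinase gene Vnn1 differed by -0.91 ± 0.23, the lipase inhibitor gene Angptl4 by -0.51 ± 0.18 and Cpt1a, which sets the rate of fatty acid entry into mitochondria, by -0.21 ± 0.10. The 2 genes that were higher were the fatty acid binding protein gene Fabp1, by 0.20 ± 0.09, and the thioesterase gene Acot4, by 0.03 ± 0.14.

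Dim genes weigh on several of these lists. The mean signal was below 7.47 in 8 of the 38 other targets, and Fgf21, Cidec and Acot4 were below it in all 8 livers. Of the 30 other targets at or above it, 29 were lower, with a median log2 difference of -0.22, where 54.5% of all 5417 such genes were lower. At an unadjusted limma p under 0.05, 13 of the 30 were lower against 7.62% of such genes, and 10 had no overlap against 3.23%. Of the 7 genes first described, 6 were at or above it, 5 of them lower, with a median of -0.23. The same limit left 6 of the 15 other Cyp4 genes, with a median of -0.20 in place of -0.03, and 4 of the 11 genes of pyruvate dehydrogenase control, with a median of -0.07 in place of 0.01. In the peroxisome list it left 9 of 15, of which 1 was lower at an unadjusted p under 0.05, in place of 3. Of the 15 partners of omega-oxidation it left 10, of which 2 were lower at that p, in place of 3. Of the 11 relatives, proteases and targets of CREBH it left 7, of which 2 were lower at that p, in place of 3. Of the stellate and fibroblast markers 3 of 8 were left, and 2 of these were lower. Among genes named from other lists, Rxrg, Nrip1, Creb3l1, Pdk1, Pdp1, Pex13 and Pex26 were below 7.47 in all 8 livers. Ppargc1a, Pdp2 and Fis1 were below it in 7, and Cyp4b1 in 6.

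Averaged over the 38 other targets, the log2 signal was 8.82, 8.88, 8.80 and 8.97 in anti-miR-128-3p replicates 1 to 4, against 9.09, 9.28 and 9.16 in control replicates 1 to 3. Control replicate 4 was the lowest control and lay just above anti-miR-128-3p replicate 4, so the groups did not overlap in this average. Averaged over the 7 genes, it was 8.96, 8.86, 8.82 and 9.50 in anti-miR-128-3p replicates 1 to 4, against 9.08, 9.52, 9.45 and 8.82 in control replicates 1 to 4, which overlapped across nearly the whole range. In both averages anti-miR-128-3p replicate 4 was the highest of its group and control replicate 4 the lowest of its own.

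**Figure D4:**
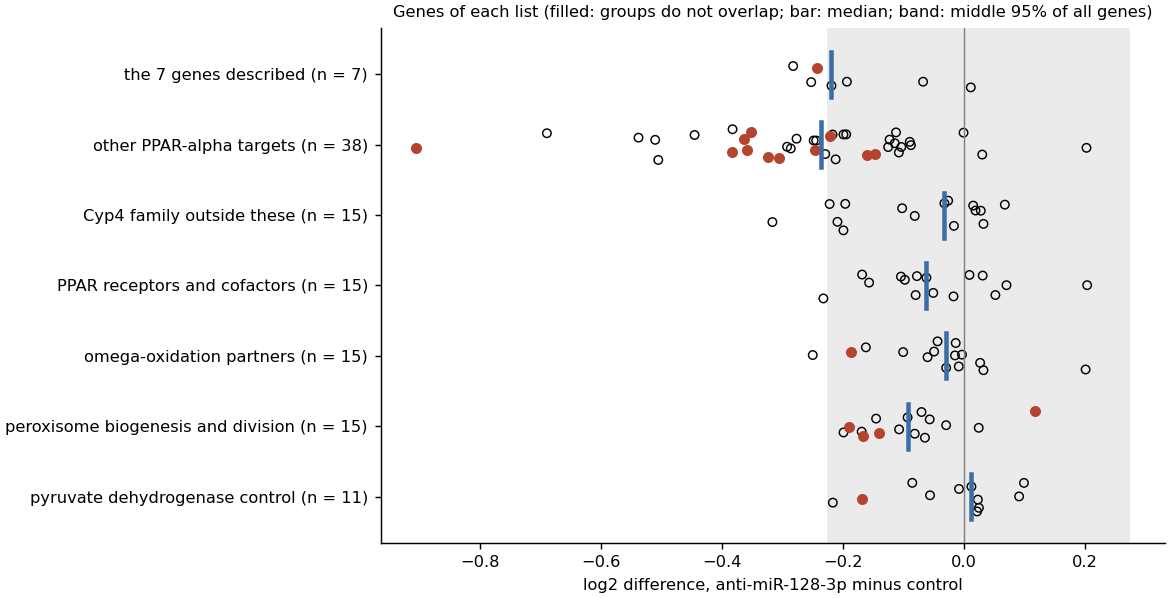
Log2 difference (anti-miR-128-3p minus control) of every measured gene in 7 lists. Filled points are genes whose groups do not overlap, blue bars are list medians, and the grey band holds the middle 95% of all 30627 genes (-0.22 to 0.27); the other PPARα targets hold 11 filled points, all below 0, and the 7 genes described hold 1.

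Among 11061 named protein-coding genes in the brighter part of the array, those at or over its median, the genes whose liver-to-liver profile was most like that of Cyp4a14 were Cyp2c39, Cyp2c38, Acnat2, Slc16a12 and Ildr2. Likeness was the mean absolute difference between gene-centred log2 signals over the 8 arrays, which was 0.49 for Cyp2c39 and 0.63 for Ildr2, the fifth. It only ranks the genes, and the value that a flat profile would have was not computed. In Cyp2c39, a P450 of another family, the low livers were anti-miR-128-3p replicate 1 (8.31) and control replicate 4 (9.66), and the other 6 lay between 9.89 and 11.07. For Pdk4 the closest were Ppbp, Slc16a5, Acot3, Acad10 and Tubb2a, at 0.20 to 0.26. All signals of Ppbp, Slc16a5 and Acot3 were below 7.47, the 95th percentile of the negative controls, and Pdk4 lay below it in 5 of 8 livers. Acot3, a peroxisomal acyl-CoA thioesterase and a gene of the PPARα list, had its highest signals in control replicate 2 (6.53) and anti-miR-128-3p replicate 4 (5.51), as Pdk4 did. The points of these profiles share the 8 arrays and their normalization, and no test was made.

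**Figure D5:**
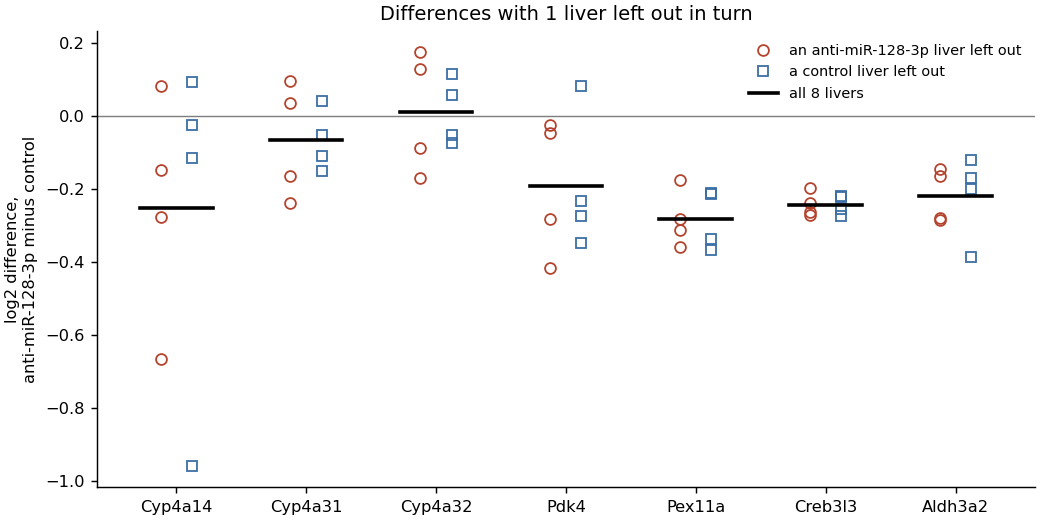
Log2 difference (anti-miR-128-3p minus control) of each gene with all 8 livers (bars) and with 1 liver left out in turn (open points). Creb3l3 stays between -0.28 and -0.20 and Cyp4a14 runs from -0.96 to 0.09, while Cyp4a31, Cyp4a32 and Pdk4 also lie on both sides of 0.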

How the data were processed

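Liver RNA of 8 mice was measured on 8 Affymetrix mouse arrays after biotin labelling, per the labels' protocols. The values the authors deposited are log2 signals per probe set, and the submitters' processing notes name RMA, a method that corrects background, normalizes quantiles and summarises probes. Which software version, annotation or filter was used is not stated. Of 72688 table entries, 6732 array controls were left out. Of the 65956 mouse probe sets, 33206 are not listed in the platform annotation, 1670 name several genes and 31080 name 1 gene. With symbols updated through the RefSeq table of GRCm38.p6, these gave 30627 genes.

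Groups were compared with limma 3.58.1 in R 4.3.3 (lmFit, eBayes, two-sided, no covariate, all 8 arrays, no filter on dim genes), with Benjamini-Hochberg adjustment over all 30627 genes at 0.05. The comparison was tested on simulated data with noise independent between probe sets. Of brighter probe sets, 100 were changed by 0.5 log2 units and 100 by 1, and 69% and 87% of them were called. Smaller changes, and livers that move many genes together, were not simulated. Single values also had an exact permutation test over the 70 assignments of livers. Python 3.11.15, pandas 2.3.3 and matplotlib 3.10.9 were used for tables and plots.

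The genes and lists were chosen with earlier results of these data known. Named genes are the set itself, up to 4 genes of each list by smallest p, a fixed set of receptors, targets and relatives, and the 5 closest profiles to Cyp4a14 and to Pdk4. Hnf4a, Fabp1, Acot4, Apcs, Lpin1, Hamp and Irgm1 were chosen after their values were seen. Some genes of the fixed set are not reported here. Alternatives were moderation with a trend, array weights, a filter on dim genes, averaging the probe sets of a gene, centring on array medians, the replicate number as a block and leaving out each liver. The fit of every probe set by itself, and the lists without genes whose mean was below the 95th percentile of the negative controls, were chosen after seeing the data.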

Additional observations from a re-analysis of the deposited data

Results flagged for a closer look

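Each group of 4 livers was tested for a liver far from the other 3 with Dixon's ratio of the gap to the range, over 96 groups. Chance flags about 1 group in 20. None of Cyp4a14, Cyp4a31, Cyp4a32, Pdk4, Pex11a, Creb3l3, Aldh3a2 or the shared Cyp4a10 and Cyp4a31 probe set had such a liver, the low Cyp4a14 of control replicate 4 included. With 4 livers in a group the ratio can miss an outlying one. Without control replicate 4 the log2 difference of Cyp4a14 was -0.96 in place of -0.25. Fgf21, the fasting hormone gene, was at 5.32 in anti-miR-128-3p replicate 2, against 6.19 to 6.33 in the other 3 livers of that group. Angptl4 was at 9.11 in anti-miR-128-3p replicate 3, against 8.35 to 8.46 in the others. Pdha1 was at 8.16 in anti-miR-128-3p replicate 1, against 8.41 to 8.45 in the others.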

How the results depend on the processing

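Of 105 values of the 7 genes under the alternatives, 95 kept their sign and side of the threshold and 10 changed sign, all of them with 1 liver left out. Moderation with a trend, the block, the filter on dim genes and the fit of every probe set left each difference unchanged. So did averaging probe sets, since each of the 7 genes has 1. Under these alternatives a sign could not change, only a call. The ranges over the 8 livers left out were -0.96 to 0.092 for Cyp4a14, -0.24 to 0.10 for Cyp4a31, -0.17 to 0.18 for Cyp4a32, -0.42 to 0.081 for Pdk4, -0.37 to -0.17 for Pex11a, -0.28 to -0.20 for Creb3l3 and -0.39 to -0.12 for Aldh3a2. The cause was not tested. The number of these genes called by limma was 0 under every alternative run. Of the 7, 4 (without control replicate 3) to 7 were lower, and 1 to 2 (without control replicate 1) had no overlap. The shares of all genes that were lower or had no overlap were not counted with a liver left out. Their median ran from -0.28 to -0.05, and that of the other PPARα targets from -0.27 to -0.21, with 33 to 37 of 38 lower. Leaving genes with a mean below the 95th percentile of the negative controls out of the lists kept the sign of both medians. Over all genes 0 to 1 were called, the 1 being Irgm1 without control replicate 4 (limma adjusted p = 0.0375). With the replicate number as a block, 0 genes were called and no call changed. Nothing states that the numbers pair the mice. The deviations of same-numbered livers from their group means correlated at r = -0.15 to -0.04, and those of other pairs at r = -0.12 to 0.16. With 4 livers per group these values show no sign of pairing but cannot settle it. Single livers limit these values, and 4 against 4 cannot give an exact p below 0.0286.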

Other observations

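Lpin1 and Hamp also varied widely between livers, and were picked out after their values were seen. Lpin1, a phosphatidate phosphatase that also coactivates PPARα, was at 8.19, 8.80, 10.55 and 8.63 in anti-miR-128-3p replicates 1 to 4, against 10.18, 8.16, 10.16 and 8.60 in control replicates 1 to 4. High and low livers occurred in both groups, and the log2 difference was -0.23 ± 0.61 (SE, limma adjusted p = 0.973). Hamp, the hepcidin gene and a CREBH target in mouse, was at 7.85, 12.22, 10.42 and 8.02 in anti-miR-128-3p replicates 1 to 4, against 7.05, 13.01, 11.40 and 13.20 in control replicates 1 to 4. Its log2 difference of -1.54 ± 1.45 (SE, limma adjusted p = 0.869) was within the spread of either group.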
